A study of Mus musculus with 6 samples.

Results

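A group of 10 genes of cytosolic and endosomal nucleic acid sensing was followed in neural stem and progenitor cells (NSPCs): the RNA sensors Ddx58, Ifih1, Dhx58 and Tlr3, the DNA sensor Cgas, the adaptors Mavs and Sting1, the kinases Tbk1 and Ikbke, and the transcription factor Irf3. They were chosen by name and looked up by NCBI gene identifier, and 10 of 10 were found among the 17254 genes with a count in any library. RNA-seq had been done on 6 libraries of mouse NSPCs cultured in N2 medium with EGF and bFGF: 2 untreated controls, 2 treated with 5 µM paraquat (PQ), which generates superoxide inside the cell, and 2 treated with 5 mM N-acetylcysteine (NAC), a thiol antioxidant, all for 48 h. A PQ dose is labelled for PQ library 1 only, and that of PQ library 2 was taken from the study's RNA-seq methods. The labels of control library 1 and PQ library 1 give the genotype Ink/Ark knockout and the strain C57BL/6. The labels of the other 4 libraries give neither, and the study's methods describe a single immortalized Ink/Arf-/- culture of neonatal origin, which holds stem cells, neuronal precursors and oligodendroglial progenitors together. Cdkn2a, the gene that encodes ARF, stood between 11.4 and 16.3 CPM (counts scaled to the library total) in the 6 libraries. A count per gene does not show which exons the reads came from, so this value does not test the deletion. Per the labels, control library 1 and PQ library 1 were extracted with NucleoSpin columns and prepared by Illumina protocols, and the other 4 libraries, both NAC libraries included, were extracted with TRIZOL and sequenced on BGISEQ-500. Library totals, in expected counts, which are estimates that share reads between genes, were 9849392 and 10040827 for control, 10388731 and 9680436 for PQ, and 10698241 and 9907726 for NAC.

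Cells recognise foreign or misplaced nucleic acid through sensors that sit in different compartments. RIG-I (encoded by Ddx58) and MDA5 (Ifih1) bind double-stranded RNA in the cytosol and signal through MAVS on mitochondria, TLR3 reads double-stranded RNA in endosomes, and cGAS makes a cyclic dinucleotide on cytosolic DNA that activates STING at the endoplasmic reticulum. These routes meet at the kinases TBK1 and IKKε, which phosphorylate IRF3, and IRF3 then switches on type I interferon genes, whose products raise the expression of several of the sensors in turn.

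Levels were compared between genes on the deposited FPKM scale, a fragment density that corrects for transcript length and library total. Sting1 had the highest level in control, with an FPKM of 43.2 and 45.3 in the libraries (44.3 ± 1.51, mean ± SD, n = 2). Tbk1 followed at an FPKM of 19.5 ± 0.658 and Irf3 at 13.8 ± 0.396. Mavs (11.2 ± 0.877) and Ddx58 (10.2 ± 0.601) were neighbours in FPKM, and they did not differ beyond their spread, since one library of each had the same value of 10.6. Tlr3 lay lower at an FPKM of 5.29 ± 0.438. Ifih1 (3.75 ± 0.431) and Dhx58 (3.46 ± 0.424) overlapped in FPKM, and Cgas stood below both at 2.61 ± 0.191. Ikbke was last, at an FPKM of 0.125 ± 0.0495 and with 5 and 3 expected counts in the control libraries. The order by FPKM was not the same in the treated cells. With PQ, Ddx58 (15.6 ± 0.12) stood above Mavs (14.3 ± 0.0354) and Irf3 (13.5 ± 0.948) in FPKM. With NAC, Cgas (3.74 ± 0.396) stood above Dhx58 (1.34 ± 0.156) in FPKM, the reverse of their order in control and PQ.

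**Figure D1:**
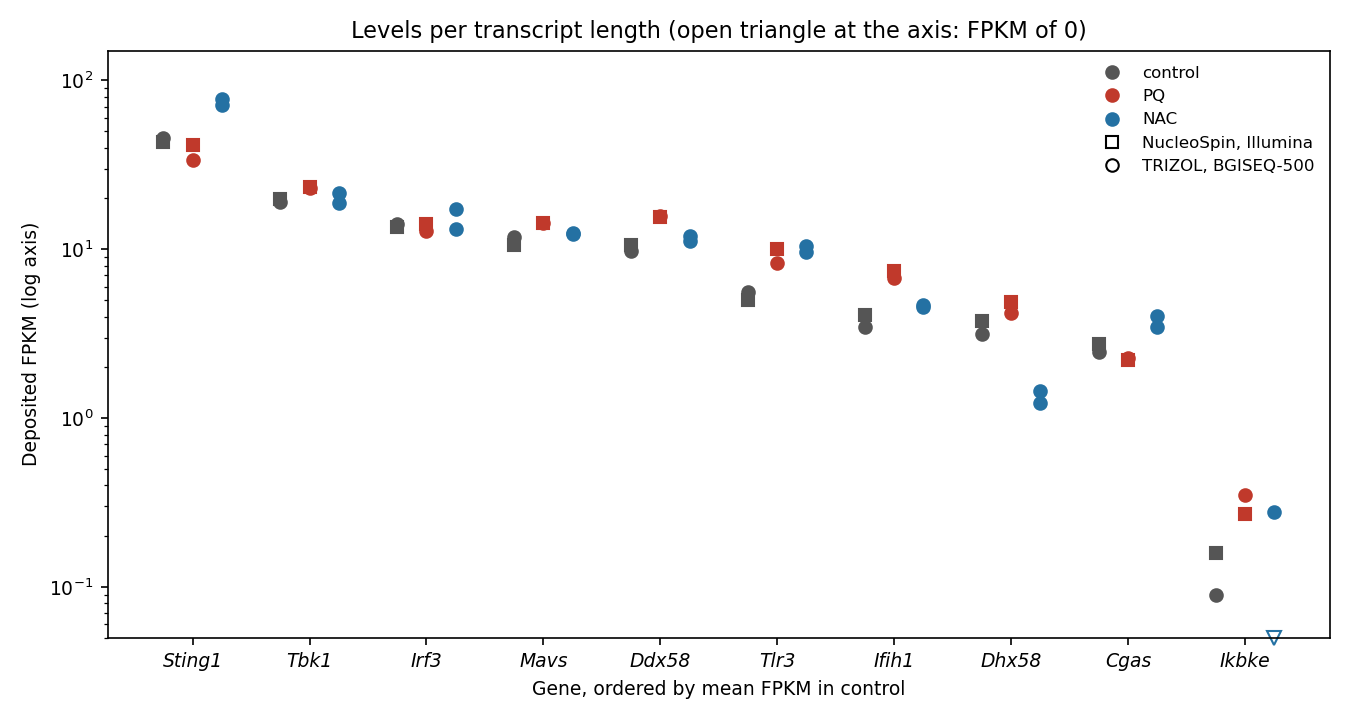
Deposited FPKM (log axis) of each gene in each library, with genes ordered by their control mean, colours for control, PQ and NAC, squares for NucleoSpin and Illumina libraries and circles for TRIZOL and BGISEQ-500 libraries. Sting1 is highest in every library, from an FPKM of 33.9 to 77.4, and Ikbke is lowest, with 1 NAC library at 0.

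Treated and control cells were then compared gene by gene, to ask whether the sensing machinery itself moves with the redox state of the culture. Counts were scaled to CPM with TMM normalization, which sets each gene's count against an adjusted library total, and 12532 genes with a mean of at least 10 counts were tested, among them 9 of the 10 sensor and adaptor genes, Ikbke being below this minimum. With PQ, Ddx58, Ifih1 and Tlr3 rose against control, which is 3 of the 9 tested, beside 9.41% of all genes tested, and 0 of the 9 fell, beside 8.96% of all genes. With NAC, Tlr3 and Sting1 rose, 2 of the 9 beside 8.94% of all genes, and Dhx58 fell, 1 of the 9 beside 9.38%. Between the treatments, Ddx58, Ifih1 and Dhx58 were higher in PQ than in NAC, 3 of the 9 beside 15.7% of all genes, and Cgas and Sting1 were lower, 2 of the 9 beside 15.4%. The median log2 fold change of the 9 genes was 0.33 for PQ against control, 0.14 for NAC against control and 0.21 for PQ against NAC, and that of all genes tested was 0.00 in each comparison. These comparisons share libraries, so their values are given side by side and are not independent of each other. Ddx58, Ifih1 and Dhx58 belong to an interferon gene list that the study drew up from differential expression, so their direction here is not independent evidence.

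**Figure D2:**
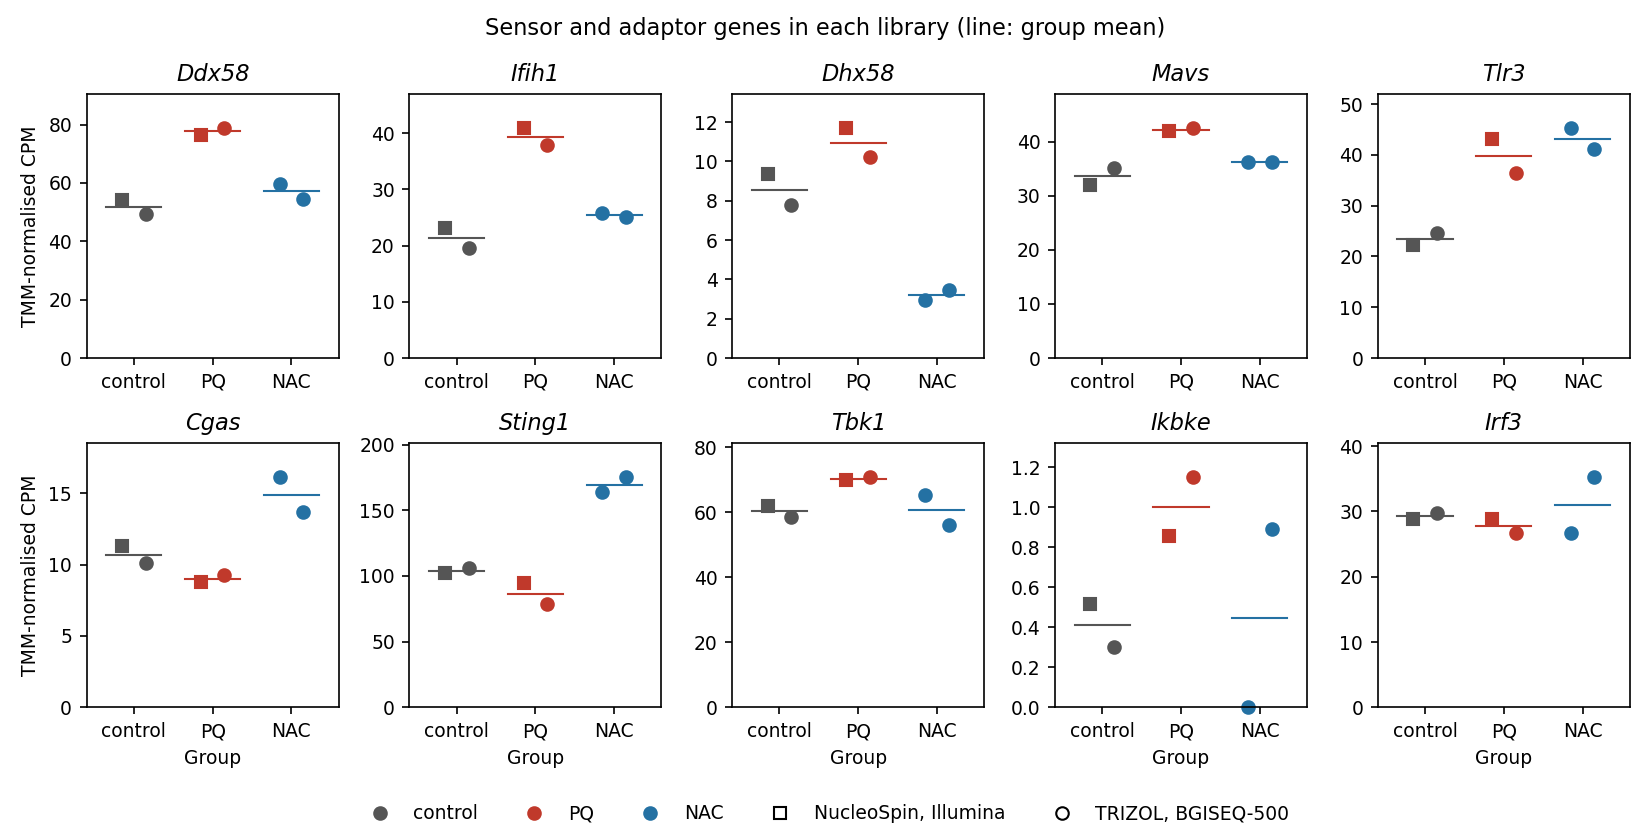
TMM-normalised CPM (linear axis from 0) of each gene in each library by group, with a line at the group mean, squares for NucleoSpin and Illumina libraries and circles for TRIZOL and BGISEQ-500 libraries. Both PQ libraries lie above both control libraries for Ddx58, Ifih1 and Tlr3, and both NAC libraries lie above all the others for Sting1 and Cgas and below all the others for Dhx58.

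Ddx58 (gene 230073) encodes RIG-I, the helicase that recognises short double-stranded RNA with a triphosphate end. It was measured at 54.2 and 49.3 CPM in control, 76.5 and 78.8 CPM in PQ, and 59.7 and 54.5 CPM in NAC. Both PQ libraries were high and clear of every other library, while the NAC libraries lay only just above control library 1. PQ raised it 1.5-fold (log2 fold change 0.58 ± 0.10 SE, Benjamini-Hochberg adjusted p = 6.7e-04 by edgeR's quasi-likelihood test), with log2 differences of 0.49 within the NucleoSpin pair and 0.67 within the TRIZOL pair of libraries. The log2 fold change was 0.14 ± 0.11 for NAC against control (adjusted p = 0.39) and 0.44 ± 0.10 for PQ against NAC (adjusted p = 0.0028). Its expected counts were fractional in all 6 libraries, so some of its reads were shared with other genes and its level carries that uncertainty. In bulk RNA, a different number of expressing cells and a different amount of RNA per cell cannot be told apart, here and for every gene that follows. The labels do not say that the libraries came from separate cultures, so the p-values measure the spread between these samples, which may be technical. The fit in edgeR drew its estimate of that spread largely from all genes tested, not from each gene alone.

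Ifih1 (gene 71586) encodes MDA5, the helicase that coats long double-stranded RNA. Its levels were 23.2 and 19.5 CPM in control, 40.9 and 37.8 CPM in PQ, and 25.7 and 25.1 CPM in NAC. The PQ libraries stood apart from all the others, and the NAC libraries lay slightly above control without overlap. The rise with PQ was 1.85-fold (log2 fold change 0.89 ± 0.13, adjusted p = 1.4e-04 by edgeR). It was 0.81 on the log2 scale within the NucleoSpin pair and 0.95 within the TRIZOL pair. NAC against control gave a log2 fold change of 0.25 ± 0.14 (adjusted p = 0.21), and Ifih1 was 1.55-fold higher in PQ than in NAC (adjusted p = 9.0e-04).

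Since Ddx58 and Ifih1 moved together with PQ, their promoters are shown beside that of Tlr3, which was high with both treatments. The sequences are those of RefSeq on GRCm38.p6, 250 bases up to the transcription start in the direction of the gene, all 3 on the minus strand. RefSeq promoter entries were matched for 8 of the 10 genes, and the entries for Dhx58 and Sting1 were missing. The window from 250 bases before to 50 bases after the start was searched on both strands for GAAANNGAA, the core of the interferon-stimulated response element, for TTCNNNGAA, a gamma-activated site bound by STAT dimers, and for TGTTTAC, a forkhead motif. Capitals mark a match to GAAANNGAA on either strand. The Ifih1 sequence lies at chr2:62646256-62646505, the Ddx58 sequence at chr4:40239826-40240075 and the Tlr3 sequence at chr8:45410381-45410630.
Ifih1 promoter: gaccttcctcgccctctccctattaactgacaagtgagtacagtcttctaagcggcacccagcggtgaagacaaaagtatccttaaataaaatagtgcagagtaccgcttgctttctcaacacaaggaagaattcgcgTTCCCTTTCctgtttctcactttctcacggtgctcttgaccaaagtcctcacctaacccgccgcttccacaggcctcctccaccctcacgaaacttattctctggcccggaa
Ddx58 promoter: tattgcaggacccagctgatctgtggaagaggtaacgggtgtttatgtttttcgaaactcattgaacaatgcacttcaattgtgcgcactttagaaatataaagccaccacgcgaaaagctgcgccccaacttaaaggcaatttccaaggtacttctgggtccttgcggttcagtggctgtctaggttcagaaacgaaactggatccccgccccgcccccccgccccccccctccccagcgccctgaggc
Tlr3 promoter: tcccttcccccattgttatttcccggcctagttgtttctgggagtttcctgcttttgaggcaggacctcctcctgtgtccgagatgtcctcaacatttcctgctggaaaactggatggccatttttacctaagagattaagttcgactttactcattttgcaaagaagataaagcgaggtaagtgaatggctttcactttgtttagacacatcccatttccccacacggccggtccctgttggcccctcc
Just past the start, 2 further matches fell within the window searched, 1 in Ifih1 at base 33 (chr2:62646206-62646233, minus strand) and 1 in Ddx58 at base 4 (chr4:40239803-40239832, minus strand). They are shown with their flanks.
Ifih1 start region: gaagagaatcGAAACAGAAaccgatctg
Ddx58 start region: ctgaggcagtTTCGATTTCctatggccagc
GAAANNGAA was thus present in 2 of the 8 promoters, Ifih1 with 2 matches and Ddx58 with 1, beside 8.56% of all 32851 RefSeq promoters of this length. TTCNNNGAA was found in 0 of the 8 promoters, beside 8.3% of all promoters, and TGTTTAC in 0 of the 8, beside 3.65%. A match describes the letters in the window and does not show that a factor binds there.

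Dhx58 (gene 80861) encodes LGP2, a relative of RIG-I and MDA5 that lacks their signalling domains and tunes their activity. It was measured at 9.35 and 7.77 CPM in control, 11.7 and 10.2 CPM in PQ, and 2.97 and 3.47 CPM in NAC. The NAC libraries were low, the PQ libraries high and the controls between them, with no overlap among the 3 groups. NAC lowered it to 0.377 of control (log2 fold change -1.41 ± 0.23, adjusted p = 1.9e-04 by edgeR). Against the control library of the same preparation, the NAC libraries differed by -1.33 and -1.12 on the log2 scale. On the log2(FPKM + 1) scale, which understates changes at low levels, limma gave a log2 fold change of -0.93. PQ against control gave a log2 fold change of 0.36 ± 0.19 with a 95% confidence interval from -0.04 to 0.76 (adjusted p = 0.21), which did not pass the test. PQ exceeded NAC by 3.41-fold (adjusted p = 6.8e-06 by edgeR). Dhx58 lies opposite the noncoding transcript Gm11547 in GENCODE vM1. The study's methods name a stranded Illumina kit, but whether strand was used in counting was not stated in the sources used here, so it was not tested whether reads of the antisense transcript are included.

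Mavs (gene 228607) encodes the mitochondrial adaptor on which RIG-I and MDA5 converge. Its levels were 31.9 and 35.2 CPM in control, 41.9 and 42.5 CPM in PQ, and 36.3 and 36.2 CPM in NAC. The groups did not overlap, with PQ highest and NAC between PQ and control. The difference between PQ and control was small and lay at the threshold, with a log2 fold change of 0.33 ± 0.11, a 95% confidence interval from 0.09 to 0.57 and an adjusted p of 0.052 by edgeR. It passed in 2 of 15 alternative analyses, with an adjusted p of 0.048 when genes were filtered by mean FPKM and 0.046 without control library 2. NAC against control gave 0.11 ± 0.12 on the log2 scale (adjusted p = 0.56).

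Tlr3 (gene 142980) encodes the endosomal receptor for double-stranded RNA, which signals through TRIF and not through MAVS. It was measured at 22.2 and 24.7 CPM in control, 43.2 and 36.5 CPM in PQ, and 45.3 and 41.1 CPM in NAC. Control libraries were low, and the libraries of both treatments were high and overlapped each other. The rise was 1.70-fold with PQ (log2 fold change 0.76 ± 0.13, adjusted p = 4.6e-04 by edgeR) and 1.84-fold with NAC (0.88 ± 0.13, adjusted p = 7.0e-05). Within the NucleoSpin pair the log2 difference of PQ from control was 0.95, and within the TRIZOL pair it was 0.56. PQ against NAC gave a log2 fold change of -0.12 with a 95% confidence interval from -0.37 to 0.14 (adjusted p = 0.5), so any difference between the treatments was smaller than these data resolve. Tlr3 was the 1 gene of the 9 that passed the test against control with both treatments.

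Cgas (gene 214763) encodes the enzyme that senses cytosolic DNA. Its levels were 11.3 and 10.1 CPM in control, 8.75 and 9.27 CPM in PQ, and 16.1 and 13.7 CPM in NAC. The NAC libraries were high and the PQ libraries low, with no overlap among the groups. Neither comparison with control passed the test: the log2 fold change was -0.25 ± 0.18 for PQ (adjusted p = 0.37) and 0.48 ± 0.17 for NAC (adjusted p = 0.054). Without a filter on low counts the latter had an adjusted p of 0.043 by edgeR. PQ against NAC did pass, with Cgas at 0.605 of its NAC level (log2 fold change -0.72 ± 0.17, adjusted p = 0.003). Its counts were fractional in all 6 libraries, and it lies opposite the noncoding transcript Gm8093 in GENCODE vM1, so its level is uncertain in both respects.

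Sting1 (gene 72512) encodes STING, the adaptor that cGAS activates. It was measured at 102 and 106 CPM in control, 94.4 and 78.7 CPM in PQ, and 164 and 175 CPM in NAC. The NAC libraries stood far above the rest, and both PQ libraries lay below both controls. NAC raised Sting1 1.63-fold (log2 fold change 0.71 ± 0.10, adjusted p = 6.4e-05 by edgeR), and the NAC libraries exceeded the control library of their own preparation by 0.63 and 0.72 on the log2 scale. PQ against control gave -0.26 ± 0.10 with a 95% confidence interval from -0.48 to -0.04, which did not pass after adjustment (adjusted p = 0.094). The difference was -0.11 within the NucleoSpin pair and -0.42 within the TRIZOL pair. Sting1 in PQ was at 0.511 of its NAC level (adjusted p = 1.3e-06 by edgeR).

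The kinases Tbk1 and Ikbke and the transcription factor Irf3 had no call: Tbk1 and Irf3 did not pass the test in any comparison, and Ikbke was below the count minimum. Tbk1 (gene 56480), the main kinase of IRF3, had 62.1 and 58.6 CPM in control, 70.1 and 70.8 CPM in PQ, and 65.5 and 56.1 CPM in NAC. The PQ libraries were the highest and close together, while the NAC libraries lay on either side of control. Its log2 fold change was 0.22 ± 0.11 for PQ (adjusted p = 0.16 by edgeR) and 0.01 ± 0.11 for NAC (adjusted p = 0.96). Irf3 (gene 54131) had 28.9 and 29.7 CPM in control, 28.9 and 26.7 CPM in PQ, and 26.7 and 35.2 CPM in NAC, so its groups overlapped. The 95% confidence interval of its log2 fold change ran from -0.37 to 0.22 for PQ and from -0.21 to 0.37 for NAC. Irf3 overlaps the protein-coding gene Bcl2l12 on the opposite strand in GENCODE vM1, so its reads may not all be its own. Ikbke (gene 56489), which encodes IKKε, had 5 and 3 expected counts in control, 9 and 11 in PQ, and 0 and 9 in NAC. Both PQ libraries lay above both controls, while the NAC libraries spanned the control values and reached the count of PQ library 1, and at such counts a change was not detectable. Without a filter, the log2 fold change of PQ against control was 1.26 ± 0.77 (adjusted p = 0.33 by edgeR).

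**Figure D3:**
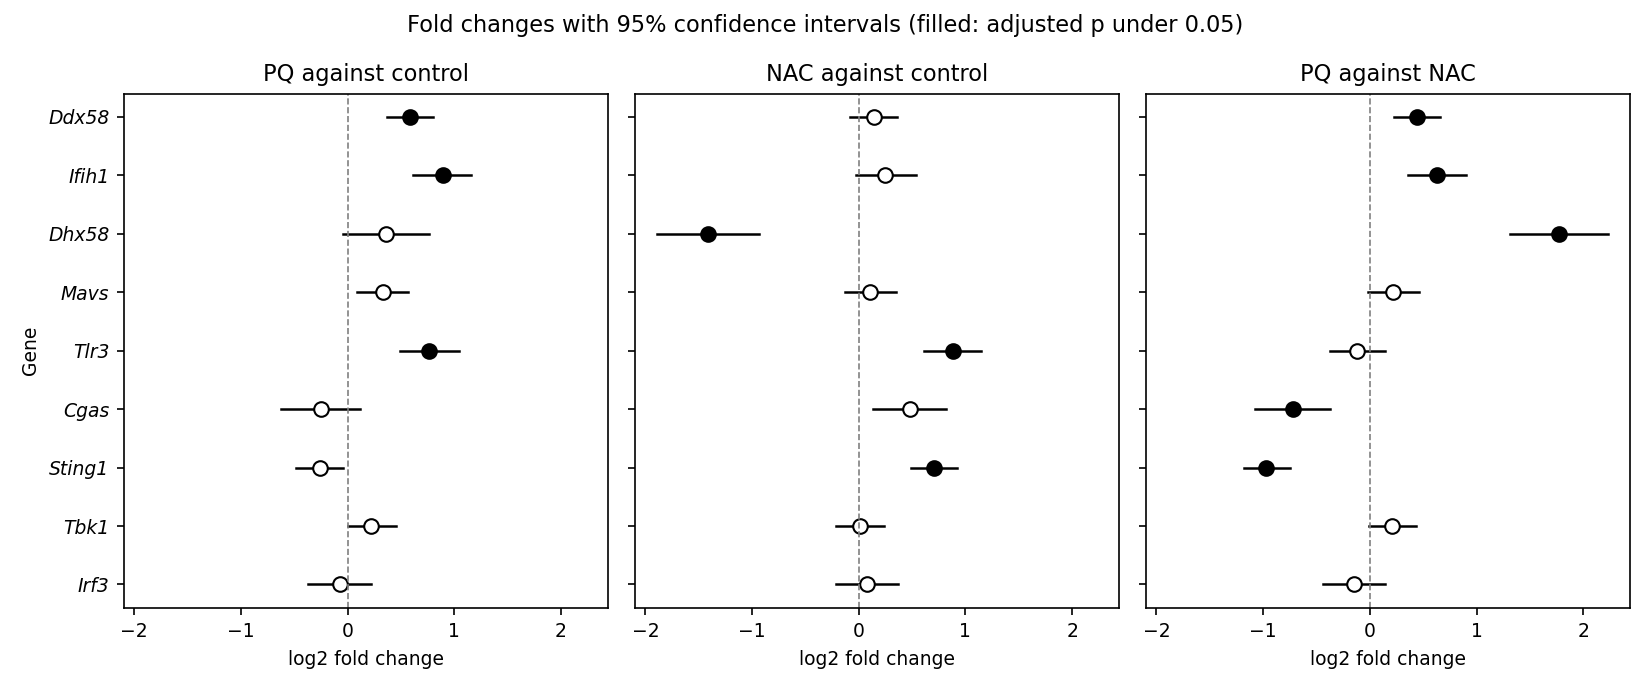
Log2 fold change of the 9 genes tested in each comparison, with bars for 95% confidence intervals and filled points for an adjusted p under 0.05 by edgeR. Ddx58, Ifih1 and Tlr3 are to the right of 0 for PQ against control, Tlr3 and Sting1 for NAC against control, and Dhx58 at -1.41 is the 1 gene called lower with NAC.

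Proteins that work with the sensors were taken next, from lists drawn up by role. Of 19 partners of the RNA sensors, 16 were tested, and PQ raised 5 and lowered 2 of them, beside 9.41% and 8.96% of all genes tested, with a median log2 fold change of 0.13 beside 0.00 for all genes. The smallest adjusted p-values belonged to Nlrc5, a NOD-like receptor that drives MHC class I genes (log2 fold change 1.49 ± 0.25), the double-stranded RNA kinase gene Eif2ak2 (0.56 ± 0.10), Trim25, whose product ubiquitinates RIG-I (0.59 ± 0.11), the stress granule gene G3bp1, which fell by 0.40, and, at the same adjusted p of 0.0048 by edgeR, the Toll-like receptor adaptor gene Myd88 (0.80 ± 0.18). For PQ against control, Nlrc5 and Eif2ak2 passed in every alternative that tested them. Without PQ library 1, 2 partners rose, and Trim25 (adjusted p = 0.053), G3bp1 (adjusted p = 0.099) and Myd88 (adjusted p = 0.072) did not pass, nor did they with the TRIZOL libraries alone. Myd88 also did not pass without control library 1 (adjusted p = 0.063). The other gene that fell, Rnf125 (-0.47, adjusted p = 0.047 by edgeR), did not pass with the preparation block (adjusted p = 0.057) or without any 1 of the 6 libraries, and without PQ library 1 the number lower was 0. Trim25, Eif2ak2 and Adar are on the study's own interferon list, so their direction is not independent evidence. NAC raised 2 of the 16, Myd88 (0.80 ± 0.18) and Trim25 (0.38 ± 0.11), and lowered Zc3hav1 (-0.51 ± 0.13), beside 8.94% and 9.38% of all genes, with a median of -0.07. With the labelled preparation as a block, Trim25 (adjusted p = 0.077) and Zc3hav1 (adjusted p = 0.093) no longer passed edgeR's test for NAC, and without control library 1 neither these nor Myd88 (adjusted p = 0.058) did. Of the 15 alternatives, the call for NAC was lost in 7 for Trim25, 6 for Zc3hav1 and 2 for Myd88. Between the treatments, 6 partners were higher in PQ and 1 lower, beside 15.7% and 15.4% of all genes, with a median of 0.23. Here Eif2ak2 (0.71 ± 0.10), Nlrc5 (1.02 ± 0.23), Cyld (0.55 ± 0.14) and Adar (0.34 ± 0.10) had the smallest adjusted p-values. Adar did not pass with the block (adjusted p = 0.091 by edgeR) and lost its call in 6 of 15 alternatives, Nlrc5 did not pass without PQ library 1 (adjusted p = 0.052) nor Cyld without PQ library 2 (adjusted p = 0.092), and 2 partners were higher without PQ library 1 and 3 without NAC library 1. The gene that was lower, Rnf125 (-0.53), did not pass without PQ library 2 (adjusted p = 0.15 by edgeR), NAC library 1 (adjusted p = 0.081) or NAC library 2 (adjusted p = 0.055).

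Among 22 partners and regulators of DNA sensing, 19 were tested, and PQ raised 2 and lowered 5, beside 9.41% and 8.96% of all genes, with a median log2 fold change of -0.09. The interferon-inducible DNA sensor gene Ifi204 stood at 29.4 and 23.4 CPM in control, 45.5 and 45.8 CPM in PQ, and 15.8 and 15.8 CPM in NAC. Its PQ libraries were high, its NAC libraries low and its controls between them, without overlap. Ifi204 rose with PQ (log2 fold change 0.79 ± 0.13, adjusted p = 3.7e-04 by edgeR) and fell with NAC (-0.74 ± 0.14, adjusted p = 0.0011), in every alternative run. The genes that fell with PQ included Banf1, whose product covers DNA and competes with cGAS (-0.49 ± 0.09), Slc19a1, a folate carrier described in human cells as an importer of cyclic dinucleotides (-0.98 ± 0.20), and Mre11a, a subunit of a DNA break repair complex (-0.58 ± 0.12). Without either PQ library, 3 genes fell, and Mre11a did not pass without PQ library 1 (adjusted p = 0.062 by edgeR) or with the TRIZOL libraries alone (adjusted p = 0.17), nor Slc19a1 without PQ library 2 (adjusted p = 0.051). NAC raised Ddx41 (0.32 ± 0.10) and lowered Ifi204 and Xrcc6 (-0.44 ± 0.10), beside 8.94% and 9.38% of all genes, with a median of -0.09. Ddx41 lost its call in 10 of 15 alternatives, among them the preparation block (adjusted p = 0.087 by edgeR) and the omission of any 1 of the 6 libraries, and Xrcc6 did not pass without NAC library 2 (adjusted p = 0.052). Between the treatments, 3 were higher in PQ and 5 lower, beside 15.7% and 15.4% of all genes, with a median of -0.03. Fewer were lower when any 1 of the PQ or NAC libraries was left out. Here Ifi204 (1.53 ± 0.14), Zbp1 (1.79 ± 0.33), Prkdc (-0.49 ± 0.12) and Mre11a (-0.41 ± 0.12) had the smallest adjusted p-values. Prkdc did not pass without PQ library 2 (adjusted p = 0.069 by edgeR), and Mre11a lost this call in 4 of 15 alternatives. Zbp1 and Trex1 of this list are on the study's interferon list too, so their direction is not independent evidence.

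All 15 genes listed as kinase and TRAF adaptors were tested. With PQ, 2 rose, Ikbkg (0.44 ± 0.11) and Rela (0.34 ± 0.10), and 1 fell, Fadd, by 0.39 on the log2 scale, beside 9.41% and 8.96% of all genes, with a median of 0.08. Without PQ library 1 the adjusted p by edgeR was 0.071 for Ikbkg, 0.23 for Rela and 0.1 for Fadd, and of 15 alternatives the call was lost in 2 for Ikbkg, 3 for Rela and 7 for Fadd. With NAC, 1 gene rose, Nfkb1 (0.35 ± 0.10), and 0 fell, beside 8.94% and 9.38% of all genes, with a median of 0.08. Nfkb1 lost this call in 6 of 15 alternatives, among them the preparation block (adjusted p = 0.099 by edgeR) and the omission of control library 1 (adjusted p = 0.16) or of either NAC library. PQ against NAC gave 1 gene higher, Ikbkg (0.64 ± 0.11), and 1 lower, Nfkb1 (-0.40 ± 0.10), beside 15.7% and 15.4% of all genes, with a median of 0.02, and Nfkb1 did not pass without PQ library 2 (adjusted p = 0.066 by edgeR).

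Of 16 targets of IRF3 and of interferon signalling, 14 were tested. With PQ, 14 of the 14 rose and 0 fell, beside 9.41% and 8.96% of all genes, with a median log2 fold change of 1.14. The study's own interferon list holds 11 of the 16, so the direction of this list is not independent evidence. The antiviral gene Rsad2 (2.16 ± 0.15), the chemokine gene Cxcl10 (1.47 ± 0.10), and Ifit1 (2.02 ± 0.20) and Ifit3 (2.18 ± 0.22), whose products bind viral RNA, had the smallest adjusted p-values. Without PQ library 1, 9 of the 14 passed. With NAC, 5 rose and 1 fell, beside 8.94% and 9.38% of all genes, with a median of 0.12, and 3 rose without NAC library 1. Cxcl10 stood at 75.2 and 71.7 CPM in control, 220 and 188 CPM in PQ, and 122 and 123 CPM in NAC. Its NAC libraries lay between the other groups without overlap, and it rose with NAC too (0.74 ± 0.10, adjusted p = 4.6e-05 by edgeR). Isg20, an exonuclease gene, fell with NAC (-1.65 ± 0.33), while Ifit2 (0.52 ± 0.11) and Ifit3 (1.10 ± 0.24) rose. PQ exceeded NAC for 13 of the 14, beside 15.7% of all genes, with a median of 1.19. In this comparison Rsad2 (1.51 ± 0.14), Irf7 (1.56 ± 0.15), Ifit1 (1.75 ± 0.19) and Oasl1 (1.78 ± 0.19) had the smallest adjusted p-values. The largest log2 fold change was that of Isg20 (2.49). Ifnb1, the interferon gene that IRF3 activates, had at most 0.0951 CPM in any library, below the 0.28 to 0.31 CPM that 3 counts amount to at this depth, so its expression was not detectable in these libraries.

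**Figure D4:**
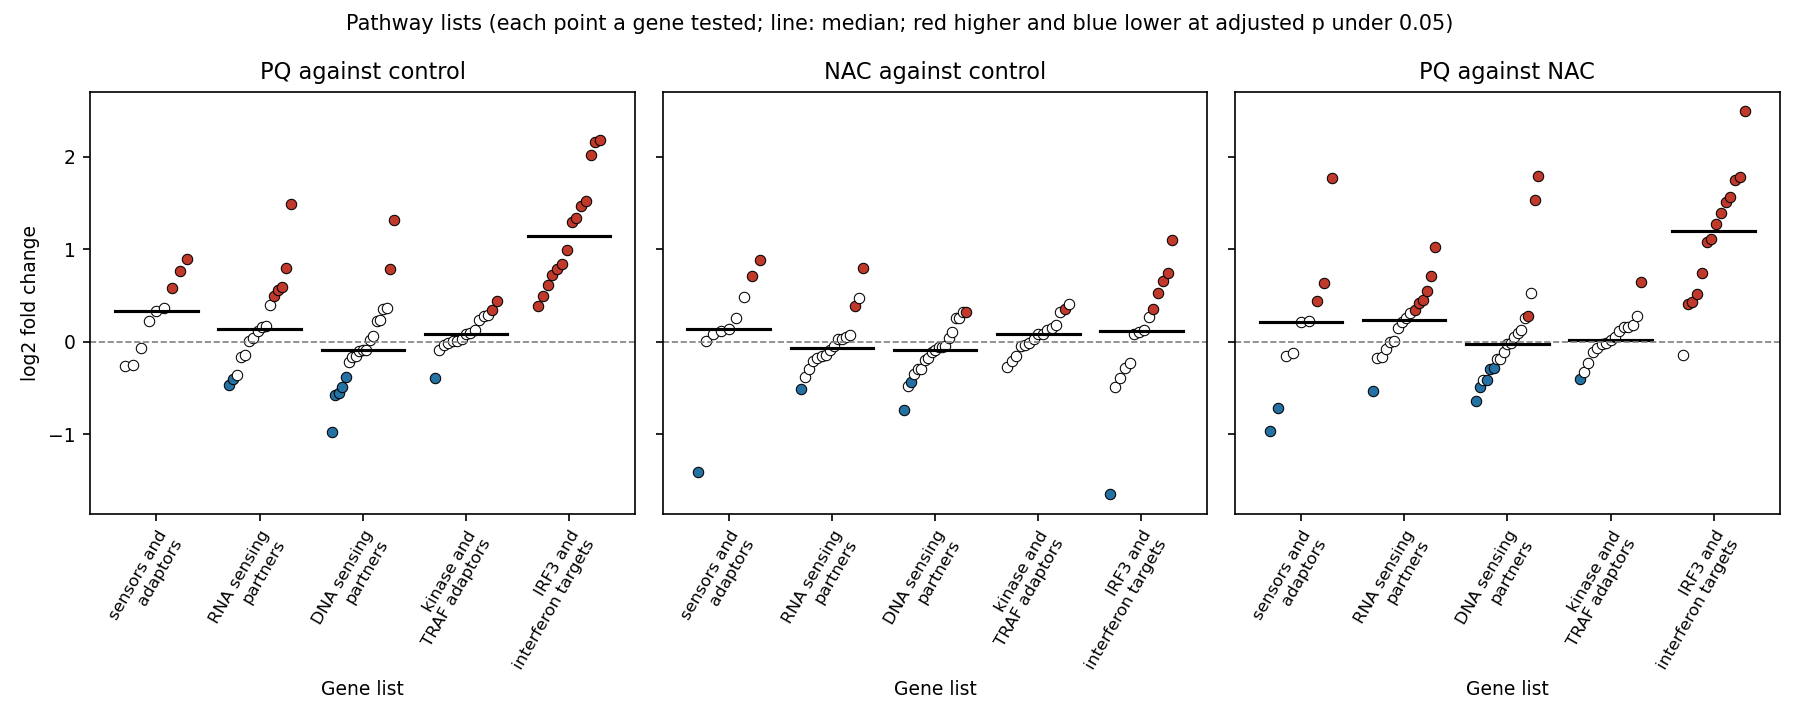
Log2 fold change of each gene tested in the sensor and adaptor genes and in 4 pathway lists, for each comparison, with a line at the list median and red or blue for genes higher or lower at an adjusted p under 0.05 by edgeR. The IRF3 and interferon targets have medians of 1.14 for PQ against control and 0.12 for NAC against control, and the other lists have medians between -0.09 and 0.33.

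Markers of cell types moved with the treatments as well. The 8 neural stem and progenitor markers, led by Vim, summed to 5910 and 6030 CPM in control, 6410 and 6660 CPM in PQ, and 4230 and 4150 CPM in NAC. The NAC libraries were low and the PQ libraries high. Nes rose (0.34) and Sox2 fell (-0.36) with PQ, each losing its call in 4 of 15 alternatives, and Nes (-0.27, lost in 11), Sox2 (-0.31, lost in 7) and Vim (-0.75, lost in 0) fell with NAC. With the preparation block the adjusted p by edgeR for NAC was 0.098 for Nes and 0.17 for Sox2. The 6 neuron markers, led by Map2, summed to 209 and 197 CPM in control, 182 and 193 CPM in PQ, and 361 and 320 CPM in NAC, and of the 2 tested Map2 rose with NAC (0.77) while Tubb3 fell with both treatments (-1.64 for PQ and -2.27 for NAC on the log2 scale), for PQ with its call lost in 4 of 14 alternatives. Tubb3 was sparsely counted, with mean counts of 32 in control, 10.5 in PQ and 7 in NAC, so the size of its fall is uncertain. Among the neuron markers, Rbfox3 was listed in no table and Stmn2 had at most 3 counts in every library. The 6 astrocyte markers, led by Slc1a3, gave sums between 792 and 883 CPM in the 6 libraries, while its genes moved in both directions. Aldh1l1 (1.17 ± 0.26) and Gja1 (0.31 ± 0.09) rose and Slc1a3 (-0.48 ± 0.09) fell with PQ, and Gfap (1.23 ± 0.21), Aqp4 (1.76 ± 0.22) and Slc1a3 (0.30 ± 0.09) rose and Gja1 (-0.43 ± 0.09) fell with NAC. The call was lost in 2 of 15 alternatives for Aldh1l1, 4 for Gja1 and 1 for Slc1a3 with PQ, and in 7 for Slc1a3 with NAC, among them the preparation block (adjusted p = 0.066 by edgeR). The 7 oligodendrocyte lineage markers, led by Olig2, summed to 879 and 895 CPM in control, 829 and 735 CPM in PQ, and 939 and 959 CPM in NAC, and Pdgfra rose with NAC (0.40), though not with the preparation block (adjusted p = 0.054 by edgeR), 1 of 4 alternatives in which it did not pass. The part of these shifts in the levels of the sensor genes was not tested. Macrophages and microglia express many nucleic acid sensors, and of their 10 markers Tyrobp and Spi1 were listed in no table and Ptprc, Aif1, Csf1r, C1qa and Tmem119 had at most 3 counts in every library. The sum of the 10 was 5.82 and 5.75 CPM in control, 8.47 and 8.96 CPM in PQ, and 11.5 and 9.81 CPM in NAC, mostly from P2ry12, which rose with NAC (1.18) but did not pass without NAC library 1 (adjusted p = 0.087 by edgeR). The 6 endothelial markers, nearly all Flt1, which rose with PQ (0.45) but did not pass without PQ library 2 (adjusted p = 0.12 by edgeR), summed to between 81.9 and 124 CPM and the 6 fibroblast and pericyte markers, led by Col1a1, to between 1.97 and 7.04 CPM.

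The genes whose pattern was most like that of each sensor were found by Pearson's r of log2 CPM over the 6 libraries among 12531 genes, as a description in which the 3 groups account for most of the spread. They were Mctp1 (r = 0.997), Chmp1b (0.992) and 1110059G10Rik (0.989) for Ddx58. For Ifih1 they were Rsad2 (0.992), Car13 (0.989) and Nlrc5 (0.988), of which Rsad2 and Nlrc5 are also on the lists above. Dhx58 was most like Tomm6 (0.998), Map6 (0.997) and Scnm1 (0.997), and Tlr3 was most like Nr4a1 (0.999), Rap1gap2 (0.994) and Tlr2 (0.993). Those nearest to Cgas were Neto2 (0.998), Naf1 (0.997) and Pnn (0.997), and those nearest to Sting1 were Six3os1 (0.999), Evc (0.997) and Lhfpl4 (0.996).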

How the data were processed

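RNA-seq libraries were grouped by the treatment in the labels. For each library the authors deposited, per NCBI gene, an expected count and an FPKM value, the latter scaled by the authors to transcript length and sequencing depth. Genes left out of a table were taken as 0. The submitters' processing notes name bcl2fastq 2.17, cutadapt, TopHat2 2.0.11, Cufflinks 2.1.1 and mm9 for the NucleoSpin libraries, and HISAT2 2.0.4, Bowtie2 2.2.5, RSEM and mm10 for the TRIZOL libraries, although all 6 tables have the columns that RSEM writes and list the same transcripts per gene. Symbols were matched for 99.7% of genes. Between 78.6 and 79.1% of the expected counts listed in a library were exactly whole, with no tolerance, and all were rounded to whole numbers.

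Differences were tested in R 4.3.3 with edgeR 4.0.16 (TMM, glmQLFit and glmQLFTest, all 6 libraries, no covariates) on genes with a mean count of at least 10, with Benjamini-Hochberg adjustment over all genes tested and a threshold of 0.05. Values after ± in fold changes are standard errors. The alternatives were DESeq2's size factors, a mean FPKM of at least 1, no filter, the test of DESeq2 1.42.0, the labelled preparation as a replicate block, a fit on the 4 libraries compared, omission of each library in turn, limma 3.58.1 on log2(FPKM + 1) and log2(FPKM + 0.1), and the TRIZOL libraries alone, which was chosen after seeing the data. The pairing of control and PQ libraries was taken from the labelled preparation, and the differences between preparations in control and in PQ correlated at -0.07 across 12532 genes, which are not independent replicates. A preparation difference common to both groups was thus not seen, and the matching of the pairs rests on the labels alone. Pearson's r of log2 CPM across preparations was 0.989 in control and 0.992 in PQ, beside 0.991 between the NAC libraries, which share a preparation. The scripts were checked on simulated counts.

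The genes and lists were chosen with earlier results of these data known. Genes named in the text were the 10 sensor and adaptor genes, up to 4 genes per list and comparison with the smallest adjusted p among those past the threshold, Myd88 as a tie for PQ, Ifnb1, the 3 genes most like each called gene, and cell type markers. Those list members and markers given further values were picked after their values were seen. Other experiments of the study were not analysed here.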

Additional observations from a re-analysis of the deposited data

How the results depend on the processing

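The 11 calls made for sensor and adaptor genes, over the 3 comparisons, kept their direction and their side of the threshold in all 15 alternatives. Of the other values for these genes, 3 passed the threshold in an alternative and 4 changed sign. Mavs passed for PQ against control at 0.33 with the FPKM filter and at 0.40 without control library 2, and Cgas for NAC against control at 0.47 without a filter, on the log2 scale. Tbk1 for NAC against control was -0.03 without control library 2, and leaving out 1 library gave -0.11 to 0.12. Irf3 gave -0.13 to 0.26 for NAC against control and -0.34 to 0.06 for PQ against NAC, changing sign without NAC library 2. The number of genes past the threshold for PQ against control was 2302, and it was 1006 with the TRIZOL libraries alone, an alternative chosen after seeing the data, in which fewer samples were fitted. Leaving out 1 library gave 844 to 2207 genes for PQ against control, lowest without PQ library 1, 1357 to 2185 for NAC against control, where all 6 libraries gave 2296, and 2448 to 4412 for PQ against NAC, where they gave 3895. A group left with 1 library was assumed to vary like the others. The preparation block gave 2112, 1741 and 3038 genes and, among the sensor and adaptor genes and the 40 list examples, it changed no call other than the 5 given with it in the text. Of the 598 values of the 40 list examples, 65 no longer passed and 0 changed sign. Between 9 and 14 of the 14 IRF3 and interferon targets passed for PQ. Ikbke and Ifnb1 were below the count minimum of the main test.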
